A study of Mus musculus with 9 samples.

Results

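The whole-testis transcriptomes of *Kpna6* ΔIBB/ΔIBB and *Kpna6*-/- mice, 2 mouse lines with different disruptions of the same nuclear import gene, were compared directly. The comparison takes the 3 testes of each mutant line, 6 of the 9 testes of the series, and the question it addresses is what distinguishes the alleles. In the *Kpna6* ΔIBB/ΔIBB line, exon 2 of *Kpna6* (importin α7) was deleted and replaced by a resistance cassette with a polyadenylation site, and a start codon in exon 3 yields a truncated protein without the importin β binding (IBB) domain. In the *Kpna6*-/- line, a gene trap sits in intron 1, upstream of a testis-specific first exon called exon 1A. By the study's description this exon lets germ cells of the *Kpna6*-/- testis still make the full-length protein, so that the line lacks Kpna6 in Sertoli cells and not in germ cells. All mice were males of 15 weeks, of lines backcrossed for 10 generations to C57Bl6/N, and the 3 wild-type testes of the series are given beside the mutants for orientation only. The mutants are called ΔIBB and knockout testes here. The sample labels number the testes 1 to 3 in each line without naming animals, litters or batches, so the P-values measure the spread between these samples.

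Importin α proteins are adaptors that bind the nuclear localization signal of a cargo, and through their IBB domain they bind importin β, which carries the complex through the nuclear pore. RanGTP releases the cargo inside the nucleus, and the adaptor is exported for another round. In the testis the import machinery changes as germ cells pass through meiosis and become spermatids, whose histones are replaced by transition proteins and then by protamines while the head condenses and the tail is built, with Sertoli cells supporting them throughout.

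The stretch of *Kpna6* that tells the alleles apart is shown first, because it holds the regular start codon and the one left to the ΔIBB transcript. The sequences are read 5′ to 3′ on the minus strand from the reference transcript *Kpna6*-201 (GENCODE M21, GRCm38), and capitals mark the annotated start codon of *Kpna6*-201 in exon 2 and the first ATG in its reading frame in exon 3. Other ATGs in this frame are left in lower case. The coding part of exon 2, chr4:129661306-129661434, is 129 bases or 43 codons long, and it is missing in the ΔIBB allele:
Kpna6 exon 2, coding part: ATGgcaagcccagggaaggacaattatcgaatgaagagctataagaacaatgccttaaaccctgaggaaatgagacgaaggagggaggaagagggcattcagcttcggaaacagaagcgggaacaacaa
Exon 3 of *Kpna6*, chr4:129657768-129657860, has 93 bases:
Kpna6 exon 3: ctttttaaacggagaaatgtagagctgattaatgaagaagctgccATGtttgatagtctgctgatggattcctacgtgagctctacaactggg
The marked ATG, the first of 2 in this frame in exon 3, lies at chr4:129657813-129657815 and is codon 59 of the full-length frame, so that 58 codons precede it. Which of these codons starts the truncated protein was not measured here.

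*Kpna6*, on chromosome 4 of GRCm38 from 129643980 to 129672767, was the first gene examined, since it checks the labels. Its normalized count, given as CPM (counts scaled to library size with TMM factors over all 9 testes), was 81.2, 85.3 and 81.8 in the ΔIBB testes and 247, 249 and 262 in the knockout testes. The wild-type testes had 201, 325 and 334 CPM. All ΔIBB testes therefore lay below all others, and the knockout testes lay among the wild-type testes. The log2 fold change of ΔIBB over knockout was -1.61 (standard error 0.04), a 3.05-fold lower level, with an adjusted P of 1.16e-09. Adjusted P-values here come from edgeR's quasi-likelihood test with Benjamini-Hochberg adjustment over all genes tested, unless another tool is named.

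The difference fell on 1 of the 2 main transcripts of *Kpna6*. *Kpna6*-201 starts at the downstream first exon, from 129662400 to 129662479, and had 11.7, 14.9 and 13.0 TPM (a transcript level scaled to transcript length and to the library) in the ΔIBB testes against 119, 122 and 126 in the knockout testes. Its mean was 9.27-fold lower in ΔIBB testes, at 13.2 ± 1.61 against 122 ± 3.59 TPM (SD, n = 3 each). *Kpna6*-202 starts at the upstream first exon, from 129672677 to 129672767, and had 15.2, 15.3 and 14.5 TPM in the ΔIBB testes against 11.9, 11.3 and 11.98 in the knockout testes. This transcript was therefore the higher of the pair in ΔIBB testes, and its levels were above those of the knockout testes without overlap. Two-sided exact permutation tests gave P = 0.1 for each transcript, the smallest value that 3 against 3 samples allow. *Kpna6*-201 made up 39.2% of the TPM of all *Kpna6* transcripts in ΔIBB testes, 89.3% in knockout testes and 81.4% in wild-type testes. The reference models also differ at the other end, where *Kpna6*-202 runs 3504 bases further in its last exon, so these values weigh the 3′ end as well as the first exon and are not counts of reads over the first exons. The study's RT-PCR found no transcript joining exon 1 to later exons in knockout testis, and its sequencing found only the shorter variant there. What the reads given to *Kpna6*-202 in these testes come from was not tested. The 4 other *Kpna6* transcripts each had a group mean of at most 2.52 TPM.

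**Figure D1:**
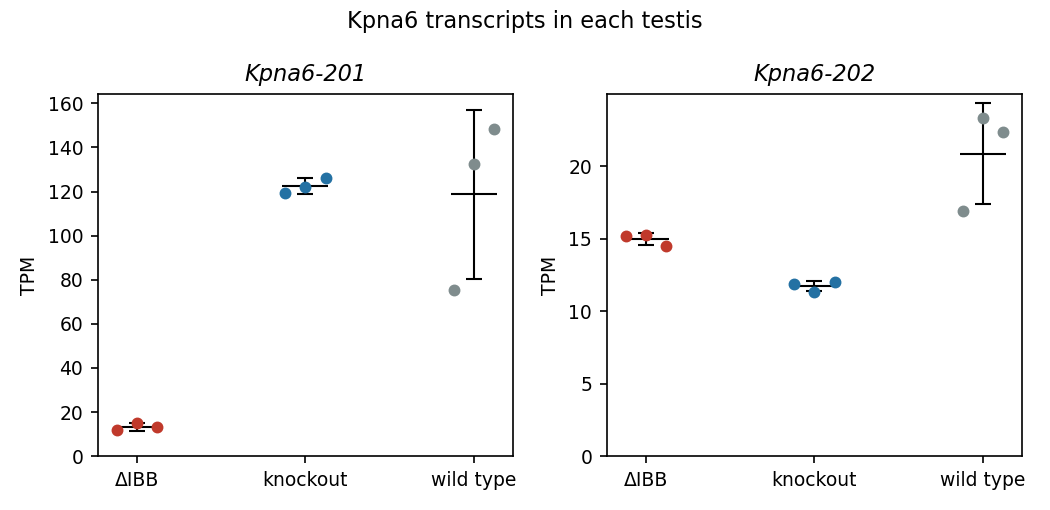
TPM of the 2 main *Kpna6* transcripts in each testis, in ΔIBB, knockout and wild-type groups of 3; points are testes, and the black bars give the mean and SD. *Kpna6*-201 lies between 11.7 and 14.9 TPM in ΔIBB testes and at 119 TPM or more in knockout testes, and *Kpna6*-202 is the lower of the pair in the knockout testes.

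Among the other importin α genes, *Kpna1*, which belongs to the same subfamily as *Kpna6*, was higher in ΔIBB testes. It had 87.1, 90.9 and 91.0 CPM against 63.0, 62.8 and 61.9 in knockout testes (log2 fold change 0.52, standard error 0.04, adjusted P = 5.50e-06), and 65.8 to 69.0 CPM in wild-type testes. It was singled out after its values were seen, as the 1 member of 6 called higher. *Kpna2* was called lower at a small difference (-0.13, adjusted P = 0.0309), a call lost with scaling to library size alone (adjusted P = 0.58) and without any 1 of ΔIBB testis 1 or the 3 knockout testes (0.057 to 0.11). *Kpna3* (0.02, adjusted P = 0.84) and *Kpna4* (-0.02, adjusted P = 0.68) did not pass the test. Of 23 importin β family, exportin and Ran cycle genes, 3 were higher and 4 lower, a share called of 30.4% against 30.3% over all genes tested. In this list 1 was higher without any testis but ΔIBB testis 3, and 8 were higher and 3 lower with library size alone. *Rcc1*, the exchange factor that charges Ran with GTP, moved furthest, from 274, 252 and 255 CPM in knockout to 163, 162 and 153 in ΔIBB testes (-0.71, standard error 0.04, adjusted P = 1.18e-06). *Ipo5*, an importin β family member that is abundant in testis, was lower too, with 1119, 1113 and 1141 CPM against 1434, 1420 and 1393 (-0.34, standard error 0.03, adjusted P = 7.88e-06).

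Across the transcriptome, many genes differed by a little. Of 18752 genes tested, 5673 (30.3%) had an adjusted P below 0.05; 2523 (13.5%) were higher and 3150 (16.8%) lower in ΔIBB testes. Their median absolute log2 fold change was 0.36, and 276 (1.47% of the genes tested) differed more than 2-fold, 131 upwards and 145 downwards. Normalized counts did not overlap between the lines in 8340 (44.5%) of all genes tested. These shares over all genes are the background for each gene list below. The lists were chosen with earlier results of these data known, so a high share in a list is not independent evidence. The lower genes were the more abundant, with a median level of 45.4 TPM against 9.70 TPM for the higher genes. Together the lower genes held 433067 to 435264 TPM in the ΔIBB testes and 493102 to 494516 in the knockout testes. The higher genes held 75163 to 80010 and 56746 to 57992. These sums describe genes chosen by the test and are not evidence beyond it. The direction of small changes depended on the scaling. With TMM the median log2 fold change over all genes was 0.0049, and with library size alone it was 0.10, which turned the split into 4931 higher and 2016 lower genes. All 2523 higher genes were also called higher with that scaling, 2016 of the 3150 lower genes were also called lower, and 0 of them turned to a call in the other direction. On log2(TPM + 1) values, limma called 3681 genes higher and 1285 lower. Sequencing depth was 24859751 to 31289789 counts on genes in the 6 testes. In a principal component analysis of log2 values of these 6 testes, the first component (43.9% of the variance) held the lines apart, and ΔIBB testis 3 stood away from the other ΔIBB testes on the second (16.4%). Without ΔIBB testis 3, 5076 (89.5%) of the calls were made again in the same direction, and without any other testis 4239 to 4470 (74.7% to 78.8%) were.

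**Figure D2:**
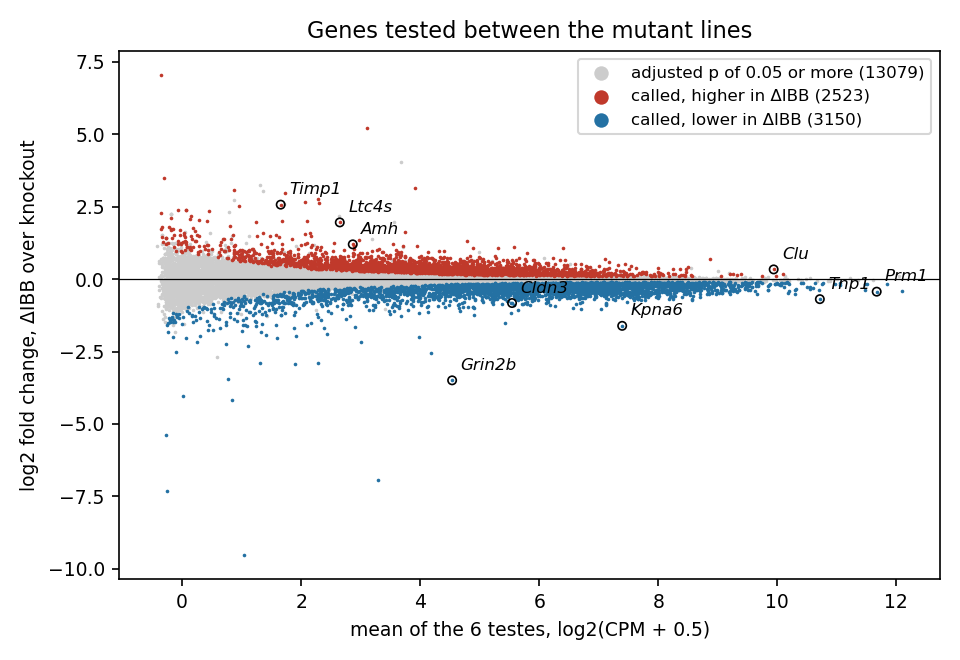
Log2 fold change of ΔIBB over knockout testes against the mean level of the 6 testes, log2(CPM + 0.5), for the 18752 genes tested; colours mark the 2523 genes called higher and the 3150 called lower, and circles mark genes named in the text. *Kpna6* lies at -1.61 and *Grin2b* at -3.50, while the abundant spermatid genes *Tnp1* and *Prm1* at the right lie at -0.69 and -0.43.

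The genes that package spermatid DNA were lower in ΔIBB testes, all 7 of 7 (*Tnp1*, *Tnp2*, the protamines and the spermatid linker histones), with a median log2 fold change of -0.41 (-0.31 with library size alone). *Tnp1*, whose product takes the place of histones in condensing spermatids, had 1384, 1351 and 1131 CPM in ΔIBB testes and 2109, 2107 and 2005 in knockout testes. This was the largest difference of the list (-0.69, standard error 0.06, adjusted P = 8.72e-06). *Tnp2*, the other transition protein gene, had 2718, 2548 and 2199 CPM against 3560, 3083 and 2963 (-0.37, standard error 0.07, adjusted P = 0.00292). The lines did not overlap for either gene, but limma on log2(TPM + 1) gave *Tnp2* an adjusted P of 0.11. *Prm1*, a protamine that replaces the transition proteins, had 2921, 2909 and 2509 CPM against 3688, 3797 and 3735 (-0.43, standard error 0.05, adjusted P = 4.89e-05). *Prm2*, the other main protamine, had 3802, 4006 and 3544 CPM against 4989, 4873 and 5193 (-0.41, standard error 0.04, adjusted P = 2.11e-05). Of the 3 ΔIBB testes, testis 3 had the lowest value of all 4 genes. Summed over the list, the level was 53062 to 61213 TPM in ΔIBB, 71497 to 72947 in knockout and 63079 to 73334 in wild-type testes. In whole testis, fewer spermatids and less of these RNAs per spermatid cannot be told apart. The study also measured *Tnp1*, *Tnp2*, *Prm1* and *Prm2* by real-time PCR in sorted round spermatids. There it found all 4 significantly lower in ΔIBB than in wild-type and knockout mice.

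**Figure D3:**
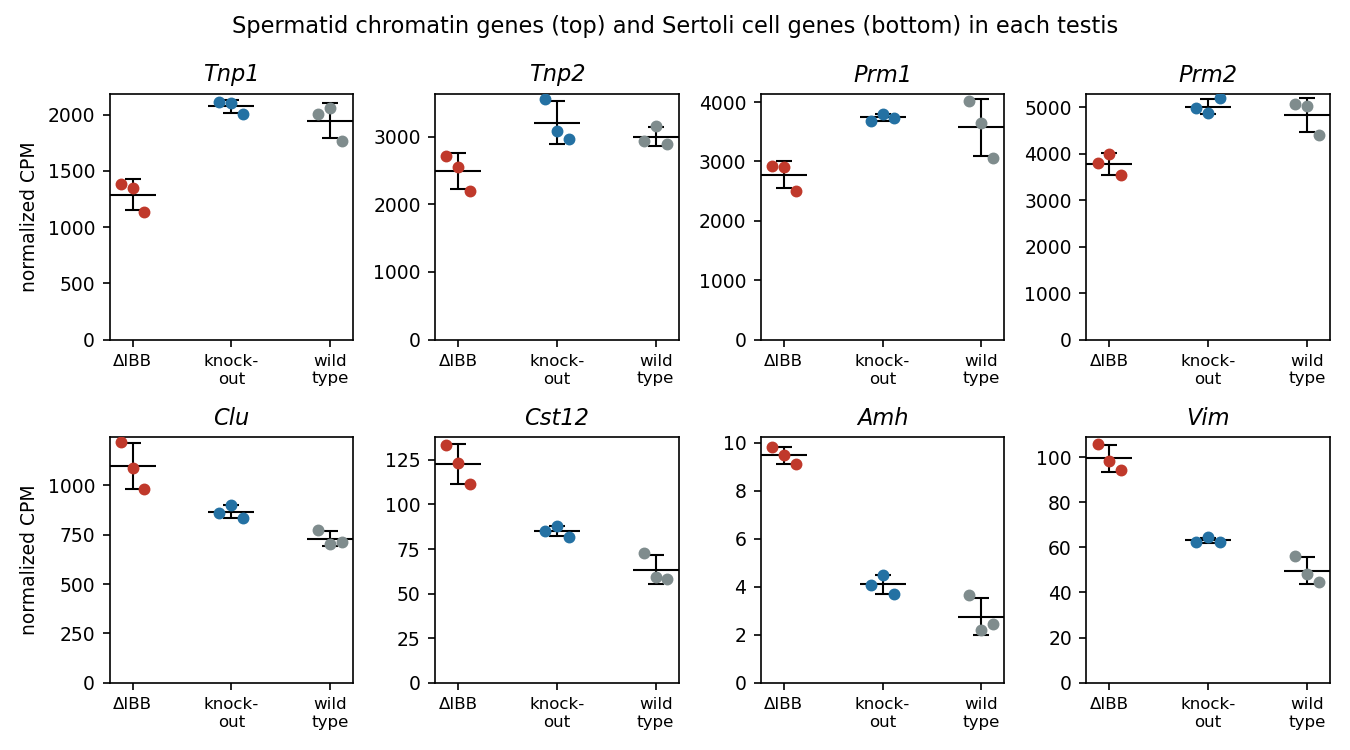
Normalized CPM in each testis for *Tnp1*, *Tnp2*, *Prm1* and *Prm2* (top) and *Clu*, *Cst12*, *Amh* and *Vim* (bottom); points are testes, and black bars give the mean and SD of 3. In all 8 genes the ΔIBB testes lie on one side of all knockout testes, below in the top row and above in the bottom row. Over all genes tested, 44.5% show no overlap between the lines.

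Promoters of these genes were examined because they are switched on together in spermatids. A CRE (letters TGACGTCA, the site of the CREM family) and a TATA box (letters TATAAA) were searched on both strands of the RefSeq promoters (GRCm38.p6, 250 bases before to 50 after the start), and the 2 motifs do not overlap. Capitals mark a match in the 250 bases before the start:
Tnp1, chr1:73015900-73016149, minus strand: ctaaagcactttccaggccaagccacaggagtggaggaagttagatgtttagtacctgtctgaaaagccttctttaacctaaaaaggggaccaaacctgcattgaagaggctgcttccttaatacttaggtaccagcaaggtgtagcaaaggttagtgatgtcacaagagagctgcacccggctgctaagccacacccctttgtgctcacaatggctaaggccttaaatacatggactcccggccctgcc
Prm2, chr16:10792106-10792355, minus strand: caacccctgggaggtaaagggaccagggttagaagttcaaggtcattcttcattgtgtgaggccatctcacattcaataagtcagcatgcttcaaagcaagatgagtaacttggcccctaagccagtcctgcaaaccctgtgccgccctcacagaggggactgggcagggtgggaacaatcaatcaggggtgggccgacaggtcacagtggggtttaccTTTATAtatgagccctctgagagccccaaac
*Prm2* holds the TATA letters on the opposite strand, and *Tnp1* holds neither exact match, nor do *Tnp2* and *Prm1*, whose promoters are not shown. Of the 6 packaging genes with a promoter in the table, 0 held the CRE letters and 1 the TATA letters. Sites that differ from these letters at any base were not searched for. A missing match therefore does not mean that a promoter lacks a CRE or a TATA box. Among the 13525 tested genes with a promoter in the table, 3.02% held the CRE letters and 9.92% the TATA letters. The shares were 4.17% and 10.6% of 2350 genes called lower, and 2.80% and 9.87% of 1966 genes called higher. The differences between these shares were not tested.

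Further lists of late spermatid genes were lower as well. Of 12 elongating spermatid genes, 12 were called lower (median -0.45), of 21 sheath and dense fibre genes 19 (median -0.38), and of 18 head and theca genes 17 (median -0.41), with 0 called higher in any of the 3 lists, against 16.8% lower and 13.5% higher over all genes. The elongating spermatid list shares members with the other lists, *Tnp1* of the packaging genes above among them. Its count is therefore not separate from theirs. *Odf1*, a protein of the outer dense fibres of the tail, had 967, 987 and 954 CPM in ΔIBB testes against 1375, 1335 and 1361 (-0.49, standard error 0.03, adjusted P = 1.17e-06). *Smcp*, of the mitochondrial capsule, had 1037, 1084 and 1012 CPM against 1481, 1470 and 1471 (-0.50, adjusted P = 1.45e-06). *Fscb*, a fibrous sheath protein, had the largest fall of the sheath list, from 341, 368 and 361 CPM to 216, 212 and 233 (-0.70, adjusted P = 1.70e-06). For each of these tail genes the lines stood apart by more than the spread within a line. *Gpx4*, which hardens the midpiece, and *Odf2* changed less (-0.15, adjusted P = 0.00367, and -0.18, adjusted P = 9.72e-04), and with library size alone the *Gpx4* call was lost (adjusted P = 0.19). In the head, *Actrt3*, an actin-related protein, fell by 0.70 (adjusted P = 2.07e-06), *Spem1*, needed to shed spermatid cytoplasm, fell by 0.46 (adjusted P = 3.02e-06), and *Capza3*, an actin capping subunit of sperm, fell by 0.41 (adjusted P = 1.13e-05) on the log2 scale.

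Round spermatid and acrosome genes followed, with 11 of 11 round spermatid genes (median -0.44) and 18 of 26 acrosome and sperm-egg fusion genes (median -0.26) called lower and 0 higher. *Eqtn*, an acrosomal membrane protein, had 51.2, 50.2 and 59.4 CPM in ΔIBB and 82.2, 87.2 and 92.2 in knockout testes (-0.70, standard error 0.07, adjusted P = 1.71e-05). *Acrv1*, of the acrosomal matrix, had 127, 124 and 145 CPM against 176, 185 and 196 (-0.50, adjusted P = 1.11e-04). In both genes ΔIBB testis 3 was the nearest to the knockout testes. *Crisp2* differed less (-0.28, adjusted P = 5.48e-05), and *Dkkl1* less still (-0.13, adjusted P = 0.0199); the *Dkkl1* call was lost with library size alone (adjusted P = 0.53) and without ΔIBB testis 1, ΔIBB testis 2, knockout testis 1 or knockout testis 3 (0.063 to 0.073).

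Of 17 CatSper channel and ion transport genes 13 were lower and 1 higher (median -0.20; 0 higher without any testis but ΔIBB testis 3), and of 35 axonemal genes 21 were lower and 0 higher (median -0.16), and of 19 intraflagellar transport genes, which build the tail, 7 were lower and 0 higher (median -0.06). With library size alone, 8 channel genes were lower and 1 higher (median -0.10), 12 axonemal genes were lower and 4 higher (-0.06), and 3 transport genes were lower and 2 higher (0.04). *Dnah3*, an axonemal dynein heavy chain, had 86.0, 93.2 and 113 CPM in ΔIBB against 177, 170.3 and 195 in knockout testes (-0.89, standard error 0.09, adjusted P = 1.68e-05; limma on log2(TPM + 1) without a filter gave 0.061). *Catsper3*, a pore subunit of the sperm calcium channel, had 37.5, 35.4 and 46.0 CPM against 55.4, 63.2 and 64.5 (-0.63, adjusted P = 3.50e-04). *Lrrc52*, an auxiliary subunit of the sperm potassium channel, fell by 0.66 (adjusted P = 9.38e-05) and *Atp1a4*, the sperm sodium pump subunit, by 0.41 (adjusted P = 6.91e-06). Of the 6 testis-specific serine kinases, 5 were lower (median -0.35), *Tssk3* by 0.55 (adjusted P = 2.14e-06) and *Tssk6* by 0.48 (adjusted P = 1.05e-05) on the log2 scale.

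Of 17 genes that regulate spermatid transcription, 11 were lower and 0 higher (median -0.19), and 9 were lower and 2 higher with library size alone (median -0.09). *Crem*, the activator that binds CRE sites in round spermatids, had 133, 137 and 146 CPM in ΔIBB and 173, 182 and 189 in knockout testes (-0.39, standard error 0.05, adjusted P = 1.05e-04). *Fhl5*, its coactivator, had 142, 131 and 139 CPM against 184, 202 and 192 (-0.50, adjusted P = 1.13e-05). *Meig1*, a spermatid protein needed for the manchette, was also lower (-0.18, adjusted P = 0.00187; 0.065 with library size alone). *Brwd1*, a chromatin reader of spermatids, was at -0.30 (adjusted P = 0.00577), and limma on log2(TPM + 1) gave -0.09 (adjusted P = 0.40). Summed with 15 genes that share sequence, it was at -0.07 (adjusted P = 0.072). Those genes held 550 TPM against 5.33 for *Brwd1*, so the summed value says little about *Brwd1*. In contrast, *Kdm3a*, the histone demethylase that acts at the *Tnp1* and *Prm1* genes, had 186, 188 and 183 CPM against 190.3, 194 and 193 (-0.05, adjusted P = 0.25), and *Rfx2*, a regulator of ciliary and flagellar genes, had 442, 469 and 454 CPM against 462, 425 and 435 (0.04, adjusted P = 0.46; 0.14 and 0.0078 with library size alone). *H2afx*, the histone variant that marks the silenced sex chromosomes in meiosis, did not pass the test either (0.07, adjusted P = 0.43).

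Among lists of earlier germ cells, the medians of the synapsis and pachytene lists changed sign with library size alone. The medians of the piRNA, meiotic division and replication lists did not. Over all genes 16.8% were called lower and 13.5% higher. Of 26 synapsis and recombination genes 6 were lower and 0 higher (median -0.08), and 1 was lower and 4 higher with library size alone (median 0.02). Of 12 pachytene genes 3 were lower and 0 higher (median -0.05), and 3 were lower and 2 higher with library size alone (median 0.05). *Ldhc*, the germ cell lactate dehydrogenase, was at -0.18 (adjusted P = 0.00105) and *Pgk2*, the germ cell glycolytic kinase, at -0.24 (adjusted P = 2.18e-04), but limma on log2(TPM + 1) gave adjusted P-values of 0.67 and 0.069. Of 18 piRNA and germ granule genes 9 were lower and 0 higher (median -0.12), but with library size alone 1 was lower and 2 higher (median -0.02), and the median on the TPM scale was 0.01. *Gtsf1*, a piRNA pathway protein, was the furthest from 0 (-0.36, adjusted P = 3.06e-05). Of 14 genes of the meiotic divisions 3 were higher and 2 lower, with 0 lower without knockout testis 2, knockout testis 3 or ΔIBB testis 1 and 1 without ΔIBB testis 2, and with library size alone 6 were higher and 0 lower. Of 15 replication genes 3 were higher and 1 lower (2 without knockout testis 1), and 7 were higher with library size alone.

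Spermatogonial genes pointed the other way, with 7 of 15 called higher and 0 lower (median 0.27). *Kit*, the receptor of differentiating spermatogonia, had 28.9, 32.02 and 33.8 CPM in ΔIBB testes against 23.5, 20.9 and 23.4 in knockout testes (0.48, standard error 0.07, adjusted P = 4.55e-04). *Dmrt1*, a regulator of the switch from mitosis to meiosis, had 28.6, 28.2 and 29.1 CPM against 23.98, 22.1 and 24.1 (0.29, adjusted P = 0.00265). *Sall4*, of stem and progenitor cells, lay at the threshold (0.43, adjusted P = 0.0479), and its call was lost without any testis but ΔIBB testis 3 (0.073 to 0.21).

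**Figure D4:**
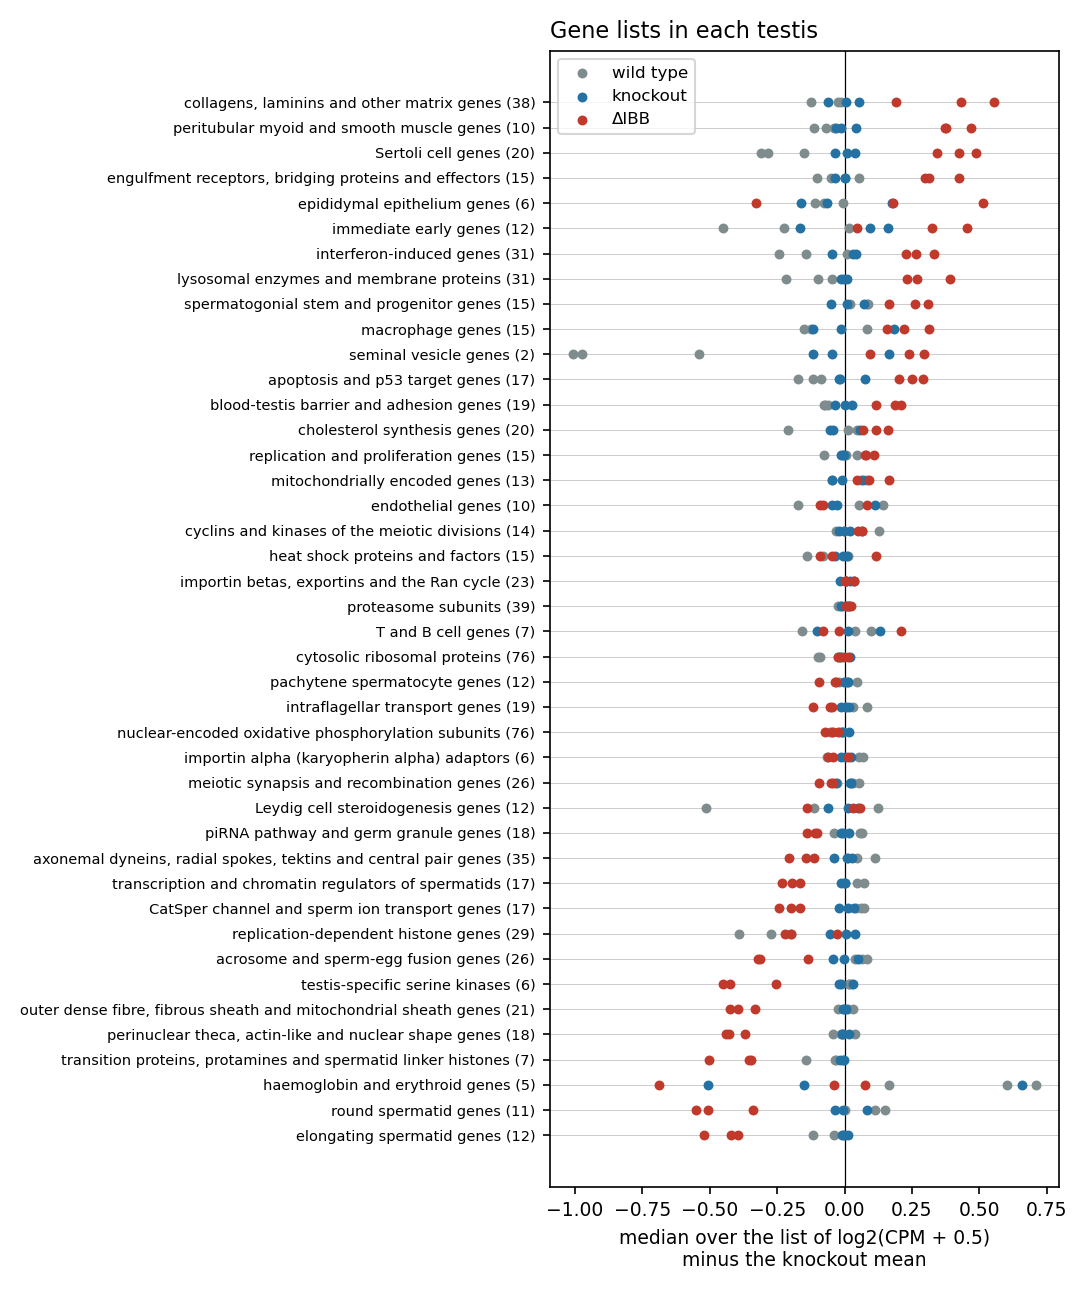
Median over each gene list of log2(CPM + 0.5) minus the mean of the 3 knockout testes, for each of the 9 testes; the number of tested genes is in parentheses. The red ΔIBB points lie left of 0 for the lists of late spermatids at the bottom and right of 0 for the Sertoli, peritubular and matrix lists at the top, and most lists of earlier germ cells and housekeeping genes lie near 0.

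Sertoli cells nurse the germ cells and form the blood-testis barrier, and every one of the 20 Sertoli cell genes tested was called higher in ΔIBB testes, with a median of 0.42 (0.52 with library size alone) and 16 to 20 calls with any 1 testis left out. *Clu*, the secreted chaperone clusterin, had 1218, 1089 and 984 CPM in ΔIBB testes and 859, 903 and 837 in knockout testes (0.34, standard error 0.06, adjusted P = 0.00142). *Cst12*, a cystatin-like protein, had 134, 123 and 111 CPM against 85.3, 87.7 and 81.9 (0.52, standard error 0.06, adjusted P = 5.29e-05). *Amh*, the anti-Müllerian hormone that adult Sertoli cells make little of, changed most, with 9.84, 9.50 and 9.13 CPM against 4.09, 4.51 and 3.70 (1.20, standard error 0.11, adjusted P = 9.55e-06). All ΔIBB testes exceeded all knockout testes in these genes, and in the wild-type testes the values were 703 to 774 for *Clu*, 58.1 to 72.7 for *Cst12* and 2.21 to 3.64 for *Amh*, below all knockout testes.
*Wt1*, a transcription factor that keeps Sertoli cell identity, was at 0.37 (adjusted P = 3.33e-04) and *Vim*, their intermediate filament protein, at 0.65 (adjusted P = 3.02e-06). *Rhox5* (0.35, adjusted P = 0.0268), a homeobox gene that androgen induces, lost its call without knockout testis 1, knockout testis 3 or ΔIBB testis 1 (0.069 to 0.096), and *Gata1* (0.31, adjusted P = 0.0243), a Sertoli transcription factor, lost it without any testis but ΔIBB testis 3 (0.052 to 0.090). *Tubb3*, a β-tubulin gene, was at 0.58 (adjusted P = 2.42e-04). The level summed over the list was 2972 to 3511 TPM in ΔIBB, 2162 to 2318 in knockout and 1683 to 1926 in wild-type testes. A larger share of Sertoli cells among the cells of the testis and more of these RNAs per Sertoli cell cannot be told apart. The study counted fewer Sertoli cells per tubule in adult testes of both lines. Its quantitative PCR covered *Rhox5*, *Wt1*, *Clu*, *Gata1* and the claudin genes *Cldn3* and *Cldn11*. Most showed no significant difference there, and only *Cldn3* was clearly lower in ΔIBB testes. Why the 2 methods differ was not tested.

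The barrier genes did not move together. Of 19 barrier and adhesion genes 9 were higher and 3 lower (median 0.16), with 1 lower without knockout testis 3, ΔIBB testis 1 or ΔIBB testis 2 and 13 higher and 1 lower with library size alone. *Cldn11*, the main claudin of Sertoli cell tight junctions, had 137, 128 and 116 CPM in ΔIBB and 92.8, 96.5 and 86.1 in knockout testes (0.46, standard error 0.06, adjusted P = 1.66e-04). *Cldn3*, a claudin of newly forming junctions, went the opposite way, with 32.2, 35.6 and 32.2 CPM against 60.6, 56.9 and 59.2 (-0.83, standard error 0.05, adjusted P = 1.82e-06). Both claudins stood apart without overlap, and with library size alone they were at 0.56 and -0.73. By the study's account germ cells express *Cldn3* too, and which cells made its RNA was not measured here. *Espn*, which bundles actin at the junction with the spermatid, was higher (0.54, adjusted P = 1.57e-05). *Tjp1*, the scaffold ZO-1, had 104, 110.0 and 104 CPM against 115, 118 and 111 and did not pass the test (-0.11, adjusted P = 0.058; 0.035 with the replicate block).

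Genes for engulfing and digesting dying cells, a task of Sertoli cells, were mostly higher. Of 31 lysosomal genes 23 were called higher and 0 lower (median 0.31), and of 15 engulfment genes 10 were higher and 3 lower (median 0.40). The engulfment gene furthest below 0 was at -0.64. Which cells made these RNAs was not measured. *Psap*, a lysosomal activator of lipid breakdown, had 398, 380.1 and 331 CPM against 286, 291 and 283 (0.36, standard error 0.05, adjusted P = 4.51e-04). *Ctsl*, a cathepsin that Sertoli cells secrete, had 469, 421 and 360.2 CPM against 299, 315 and 316 (0.42, adjusted P = 9.50e-04). Summed with 20 genes that share sequence, it was at 0.14 (adjusted P = 0.0059), but those genes held 440 TPM against 269 for *Ctsl*. *Mfge8*, which bridges phosphatidylserine on dying cells to the phagocyte, had 124, 102 and 92.3 CPM against 64.3, 68.5 and 64.9 (0.68, standard error 0.08, adjusted P = 1.15e-04). *Rac1*, which drives the uptake, was at 0.25 (adjusted P = 0.00412).

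The wall of the tubule and its matrix showed the same direction. Of 38 matrix genes 25 were higher and 1 lower (median 0.50; without ΔIBB testis 3, 21 higher and 3 lower), and of 10 peritubular myoid genes 8 were higher and 1 lower (median 0.43). *Sparc*, a matricellular protein, had 623, 564 and 543 CPM in ΔIBB and 362, 340.3 and 362 in knockout testes (0.70, standard error 0.05, adjusted P = 2.09e-06). *Timp1*, an inhibitor of matrix metalloproteinases, had 6.59, 4.59 and 2.45 CPM against 0.616, 0.552 and 1.11 (2.57, standard error 0.37, adjusted P = 2.88e-04), with a wide spread among the ΔIBB testes and no overlap. Its relative *Timp2* was at 0.36 (adjusted P = 6.03e-04). The contractile genes *Acta2* (0.53, adjusted P = 4.36e-05) and *Myl9* (0.65, adjusted P = 8.99e-06) were higher, while *Actg2*, the most abundant of this list, was lower, with 174, 164 and 173 CPM against 238, 224 and 228 (-0.44, adjusted P = 1.03e-05). Which cells made the *Actg2* RNA was not measured.

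Leydig cells, the source of testosterone, showed no shared direction, and 33.3% of their genes tested were called, against 30.3% over all genes. Of 12 steroidogenic genes 2 were higher and 2 lower (median -0.10, and 0.00 with library size alone), with 4 higher without ΔIBB testis 3, 4 lower without ΔIBB testis 1 and 1 lower without knockout testis 1 or with library size alone. *Insl3*, a Leydig cell hormone, had 643, 642 and 422 CPM in ΔIBB and 585, 591 and 599.6 in knockout testes (-0.06, adjusted P = 0.73); without ΔIBB testis 3 it was at 0.12 (adjusted P = 0.016). *Cyp17a1* and *Cyp11a1*, enzymes of androgen synthesis, overlapped between the lines (-0.18, adjusted P = 0.28, and 0.10, adjusted P = 0.44; *Cyp11a1* 0.23 and 0.037 without knockout testis 1). *Hsd3b6*, the adult Leydig cell isoform of a steroid dehydrogenase, had 31.0, 9.81 and 13.1 CPM against 35.5, 46.3 and 41.4 (-1.23, standard error 0.30, adjusted P = 0.00836; -1.84 without ΔIBB testis 1, and DESeq2 gave 0.061), and the wild-type testes ranged as widely, from 5.37 to 39.5.

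Markers of other cells were looked at for what else the dissected tissue held. Of the macrophage list 40% was called and of the endothelial list 20%, against 30.3% over all genes. Of 15 macrophage genes 5 were higher and 1 lower (2 higher without knockout testis 1, knockout testis 2 or ΔIBB testis 2, and 3 without ΔIBB testis 1), and 13 had a log2 fold change above 0. The most abundant member of the list, *Aif1*, was lower (-0.48, adjusted P = 2.29e-06), with 203 to 212 CPM in ΔIBB and 285 to 293 in knockout testes. Which cells made this RNA was not measured. Of 10 endothelial genes 1 was higher (*Eng*, 0.52, adjusted P = 0.00111) and 1 lower (*Vwf*, -0.43, adjusted P = 1.71e-04), and of 7 T and B cell genes and 5 haemoglobin and erythroid genes 0 were called by edgeR, with 1 erythroid gene higher without ΔIBB testis 3 and 1 gene of each list higher with library size alone. Of 13 epididymal genes 6 could be tested, 1 higher and 1 lower (0 lower without knockout testis 2, ΔIBB testis 2 or ΔIBB testis 3, and 2 higher and 0 lower with library size alone), and 2 were at 0 in all 6 mutant testes, among them *Lcn5*. *Crisp1*, a secreted epididymal protein, had 0.191, 1.67 and 67.7 CPM in the ΔIBB and 4.06, 0.227 and 0.0739 in the knockout testes, and *Spink8*, another epididymal gene, had 1.15, 2.33 and 24.4 against 3.66, 1.40 and 1.26. Neither passed the test (adjusted P = 0.059 and 0.09), and the high value of each belonged to ΔIBB testis 3 alone. Without that testis *Crisp1* was at -0.57 (adjusted P = 0.72) and *Spink8* at -0.25 (adjusted P = 0.7), while without ΔIBB testis 1 or ΔIBB testis 2 the list had 3 genes called higher. The summed level of the list was 534 to 653 TPM in ΔIBB and 498 to 556 in knockout testes, and its part in other results was not tested. Of the 7 seminal vesicle genes 2 could be tested, and the 1 called higher was *Svs5* (0.47, adjusted P = 0.0397; 0.056 to 0.165 without knockout testis 1 or 2 or ΔIBB testis 1 or 2).

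Of 31 interferon-induced genes 10 were higher and 0 lower (median 0.33). *Ifi27*, a mitochondrial protein and the most abundant of them, had 31.1, 28.2 and 25.5 CPM against 17.9, 19.4 and 19.3 (0.58, adjusted P = 1.52e-04), and *Gbp3*, a guanylate-binding protein, was at 0.88 (adjusted P = 0.00368). Of 17 apoptosis and p53 target genes 5 were higher and 1 lower (0 without knockout testis 2), and 10 higher and 0 lower with library size alone. *Casp8*, an initiator caspase, was at 0.60 (adjusted P = 0.00712) and the death effector *Bcl2l11* at -0.32 (adjusted P = 0.0151; 0.069 without knockout testis 2 and 0.075 with library size alone). Among 12 immediate early genes 3 were higher and 1 lower (1 and 2 without knockout testis 3, and 5 and 1 with library size alone). *Fosb*, a subunit of the AP-1 factor, had 19.4, 16.8 and 16.2 CPM against 8.33, 8.21 and 6.95 (1.15, standard error 0.10, adjusted P = 9.62e-06), and *Dusp1*, a phosphatase of the MAP kinases, had 8.12, 6.92 and 7.21 against 14.3, 12.3 and 13.4 (-0.85, adjusted P = 5.61e-05). Of 15 heat shock genes 5 were higher and 5 lower (3 without knockout testis 2 or with library size alone). *Hspb1*, a small heat shock protein, rose (0.74, adjusted P = 7.37e-05), and the germ cell form *Hspa1l* fell by 0.27 on the log2 scale (adjusted P = 5.76e-04). Over all genes 13.5% were called higher and 30.3% in either direction. The share in either direction was 32.3% for interferon, 35.3% for apoptosis, 33.3% for immediate early and 66.7% for heat shock genes.

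Of 76 ribosomal protein genes 10 were higher and 9 lower (median -0.01; 3 to 7 higher and 3 to 10 lower with any 1 testis left out), of 76 nuclear-encoded oxidative phosphorylation genes 2 were higher and 16 lower (-0.06; 0 higher and 7 to 17 lower), and of 39 proteasome genes 4 were higher and 4 lower (0.01; 1 to 5 and 3 to 5). With TMM, 25%, 23.7% and 20.5% of these lists were called, against 30.3% over all genes. The split of all 3 lists moved with library size alone, to 31 higher and 1 lower (median 0.09), 20 higher and 2 lower (0.04) and 14 higher and 1 lower (0.11). *Rpl14* was the ribosomal gene furthest from 0 (0.37, adjusted P = 1.26e-04). Of 20 cholesterol synthesis genes 6 were higher and 3 lower (10 higher without knockout testis 1; 8 higher and 2 lower with library size alone). Of 13 mitochondrially encoded genes 3 were higher (6 without knockout testis 2 or ΔIBB testis 3, 1 without knockout testis 3, and 9 with library size alone), and *mt-Cytb*, a subunit of respiratory complex III, was at 0.18 (adjusted P = 0.00123). Of 65 replication-dependent histone genes 29 could be tested, and 2 were higher and 3 lower (1 higher with any testis left out but knockout testis 1).

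The largest fold differences were found at low levels. The 10 protein-coding genes per direction with the largest fold among those with at least 5 TPM in a line and no overlap between the lines were examined. *Grin2b*, a subunit of the NMDA receptor known from neurons, had 3.98, 3.90 and 3.27 CPM in ΔIBB, 43.1, 43.4 and 38.6 in knockout and 16.6, 18.9 and 17.7 in wild-type testes (-3.50, standard error 0.09, adjusted P = 1.16e-09). The 3 groups did not overlap, and wild type lay between the mutants. *Emilin2*, a matrix glycoprotein, had 2.64, 2.23 and 10.4 CPM against 34.1, 30.6 and 26.3 (-2.55, adjusted P = 3.98e-04). The kallikrein genes *Klk1b22* (-1.97, adjusted P = 9.65e-06) and *Klk1b26* (-1.66, adjusted P = 2.06e-05), *Cd164l2* (-1.94, adjusted P = 6.86e-05) and *9230104L09Rik* (-1.68, adjusted P = 2.49e-05) were also lower.
On the higher side, *Ltc4s*, the synthase of leukotriene C4, had 9.96, 8.81 and 8.81 CPM against 2.25, 2.37 and 2.44 (1.96, standard error 0.11, adjusted P = 1.17e-06). *Tbx1*, a T-box transcription factor, had 21.3, 20.3 and 17.0 CPM against 6.09, 7.04 and 5.51 (1.64, standard error 0.11, adjusted P = 2.24e-06). *Tnfrsf12a*, the receptor of the cytokine TWEAK, had 4.63, 5.03 and 3.24 CPM against 1.16, 1.07 and 0.961 (2.00, adjusted P = 2.84e-05). In all 3 genes the wild-type testes lay near the knockout testes, at 2.04 to 2.73, 6.78 to 8.40 and 0.725 to 1.79 CPM. *Timp1*, *Lrrc26* (1.53, adjusted P = 1.35e-04), *4930486L24Rik* (1.99, adjusted P = 2.14e-05) and *Gm26897* (2.37, adjusted P = 0.00249) complete the genes whose difference changed little when near-identical sequences were summed.
Kallisto splits reads between near-identical transcripts, and 6 of the 20 genes changed most when such transcripts were summed. When transcripts with at least 95% identity over at least 100 bases were summed, *Hist2h2aa2* (3.16, and 8.40 without knockout testis 2) went to 0.09 (adjusted P = 0.14), *Pagr1a* (-2.90) to 0.01 (adjusted P = 0.94), *Gm44965* (-2.26) to -0.15 (adjusted P = 0.075) and *Gm14819*, which had 0 counts in all ΔIBB testes, to -0.09 (adjusted P = 0.38). *Gm8127* (1.5002, adjusted P = 0.0152) and *Gm8138* (1.35, adjusted P = 0.0177) went to 0.51, where both were still called. Before summing, DESeq2 called neither of this pair (adjusted P = 0.11), and *Gm8127* lost its call without ΔIBB testis 2 (0.063) and *Gm8138* without ΔIBB testis 2 or knockout testis 1 (0.078). *Gm8138* was at 2.13 without knockout testis 3. Where the matched genes hold most of the sum, it cannot tell shared reads from a change of the gene itself. Matched genes held 1413 TPM against 75.7 for *Hist2h2aa2*, 541 against 2.83 for *Gm14819*, 141 against 4.53 for *Gm8127* and 139 against 8.29 for *Gm8138* (means of the 6 mutant testes). They held 13.6 against 5.20 for *Pagr1a* and 16.1 against 15.0 for *Gm44965*. Reads shared between them were not counted.

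By difference in level rather than fold, the lower genes with the largest shift were *Tnp1*, *Prm1*, *Prm2* and *Tnp2*, followed by *Gm9999*, which went from 3427 ± 211 TPM in knockout to 2421 ± 22.5 in ΔIBB testes (SD, n = 3). The *Tnp1* level went from 15134 ± 310.1 to 10411 ± 1013 TPM. The higher genes were *Defb19*, a β-defensin (1198 ± 98.7 to 1682 ± 99.1 TPM, adjusted P = 9.24e-04), *mt-Cytb*, *Clu*, *CAAA01147332.1* (384 ± 4.41 to 653 ± 45.3 TPM, adjusted P = 8.96e-05) and *Rps14* (968 ± 47.6 to 1200 ± 28.0 TPM, adjusted P = 0.0243; 0.11 without knockout testis 2 and 0.092 without knockout testis 3).

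The wild-type testes took no part in the tests and are given for reference. Of the 5673 called genes, the wild-type mean log2 level was nearer to the knockout mean in 5297 (93.4%) and nearer to the ΔIBB mean in 376, against 75.6% nearer to knockout over all 18752 genes tested. On the log2(TPM + 1) scale the share was 86.9%. Wild type lay between the lines in 2209 called genes, beyond the knockout mean in 3401 and beyond the ΔIBB mean in 63. The called members of the lists differed in this. For the 20 Sertoli cell genes wild type lay beyond knockout in 19, so that the order was wild type, knockout, ΔIBB from low to high, and the same held for 18 of 23 lysosomal genes. For the 7 chromatin condensation genes wild type lay between the lines in all 7, close to the knockout mean. For *Cst12*, for example, the means were 277 TPM in wild-type, 369 in knockout and 587 in ΔIBB testes, and for *Tnp1* 14388, 15134 and 10411 TPM. Among the 276 genes called beyond 2-fold, 217 (78.6%) were nearer to knockout, with *Grin2b* among those where wild type lay between.

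Called genes were found on all chromosomes, from 27.1% of the tested genes on X to 33.9% on chromosome 1, apart from 7.16% on Y and 3 of 13 mitochondrial genes. The X chromosome differed in direction, with 193 (20.7%) of 931 genes higher and 59 (6.34%) lower in ΔIBB testes, against 13.5% and 16.8% over all genes. On the autosomes the share higher was 10.5% to 16.1% and the share lower 14.3% to 22.04%. On the X chromosome are *Timp1*, *Rhox5* and *Gata1*, which were named above as higher. Near *Kpna6* itself, the share called was 41.9% of 43 genes within 1 Mb and 32.6% of 132 genes from 1 to 5 Mb, against 30.3% over all genes. From 5 to 10 Mb away it was 37.8% of 127 genes. Beyond 2-fold were 6 of the 175 genes within 5 Mb, against 1.47% over all genes. Windows of 10 Mb elsewhere held larger shares beyond 2-fold, such as 4 of 28 genes (14.3%) at 60 to 70 Mb of chromosome 15 and 4 of 49 (8.16%) at 130 to 140 Mb of chromosome 6, which holds *Grin2b*. These 6 were singled out after their values were seen. *Cd164l2* (-1.94) and *Gpr3* (-1.81, adjusted P = 1.43e-04), which encodes a receptor that raises cAMP, lie 3.56 and 3.55 Mb away at chr4:133212131-133224555 and chr4:133209340-133212536. Their spans overlap, so their reads may not be separable. *Gm10571* (-1.18, adjusted P = 2.17e-04), 0.198 Mb away, and *Gm12948* (-1.42, adjusted P = 0.0364) were lower too. *Sfn*, the 14-3-3σ gene, was higher (1.05, adjusted P = 0.00582). *Cd52* (2.77, adjusted P = 0.0423), a surface antigen also made by the epididymis, had 0.919, 1.73 and 20.1 CPM in the ΔIBB testes against 1.09 to 1.15 in the knockout testes, so that the lines overlapped and the high value was again in ΔIBB testis 3. Over the alternatives *Cd52* ranged from 0.25 to 3.27 (adjusted P up to 0.58) and the adjusted P of *Gm12948* reached 0.14.

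**Figure D5:**
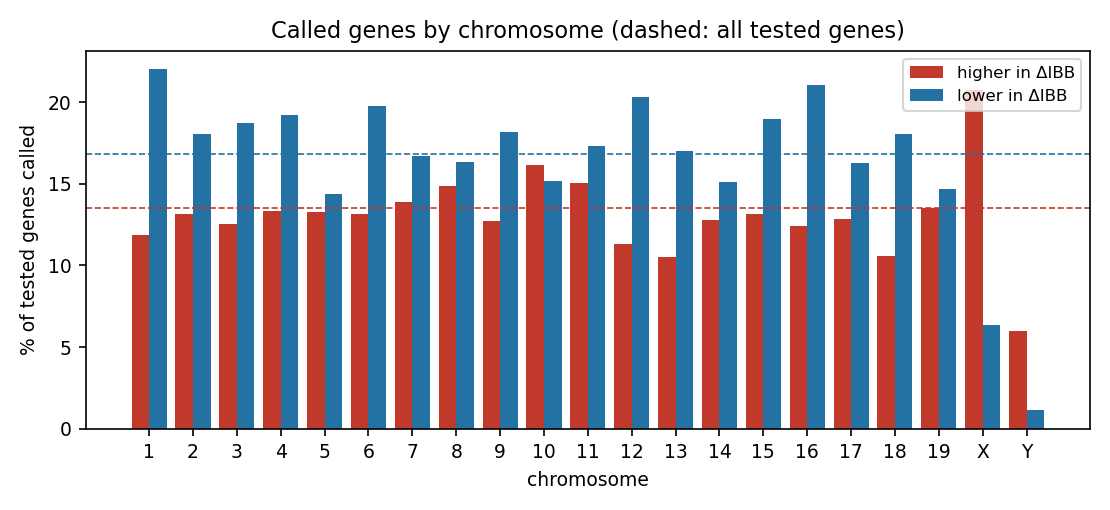
Percentage of the tested genes on each chromosome that were called higher (red) or lower (blue) in ΔIBB than in knockout testes; dashed lines give the shares over all genes, 13.5% higher and 16.8% lower. X stands out with 20.7% higher and 6.34% lower, and Y has few calls.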

How the data were processed

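RNA of whole testes was sequenced as poly(A)-selected, paired-end libraries, 3 per group. The authors quantified transcripts with kallisto on mm10 and deposited estimated counts and TPM per transcript. The transcript release is not given in the sources used here. Both were summed per gene (GENCODE M21, GRCm38), and the estimated counts were rounded. Transcripts absent from that annotation, 0.445% to 0.46% of the counts, were left out. Genes passing filterByExpr in the 6 mutant testes were tested with edgeR 4.0.16 (TMM, quasi-likelihood, Benjamini-Hochberg, R 4.3.3), without covariates, at an adjusted P of 0.05. DESeq2 1.42.0 and limma 3.58.1 on log2(TPM + 1) were alternatives, besides other scalings, filters, left-out testes and a replicate block. The fit was tested on simulated data. Depth of 24859751 to 31289789 counts limits genes of few counts.

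The comparison and the gene lists were chosen with earlier results of these data known. Genes are named when they are *Kpna6* or genes the study measured, the largest fold changes per direction, the largest differences in TPM, or, per list, the most abundant and most changed members. Exceptions are marked in the text. Some genes that this rule names are not reported here. Reads shared by near-identical transcripts were examined by summing transcripts matched with blastn 2.17.0+. Same-numbered testes of the 2 lines did not deviate together (correlations 0.0031, -0.0122 and 0.0728), so numbers were not treated as pairs. Promoter sequences are from RefSeq (GRCm38.p6).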

Additional observations from a re-analysis of the deposited data

Results flagged for a closer look

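Transcripts that the annotation used here does not list held estimated counts in every library and enter no comparison above. Their share of a library had a median of 0.449% over the 6 mutant testes. It was noticed as signal in data outside the comparison.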

How the results depend on the processing

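The number of genes called was 5673, and it was 4394 to 5735 with 1 testis left out, of which 1797 to 2586 were higher and 2530 to 3149 lower. The split moved with the scaling. Library size alone gave 4931 higher and 2016 lower genes, limma on log2(TPM + 0.1) gave 1274 lower, on log2(TPM + 1) 1285 lower, and without the TPM filter 1048 lower. DESeq2 called 4979 genes. With the replicate block, which pairs testes that share only a number, 6032 genes were called and *Kpna6* was at -1.61. Under it *Sall4* lost its call (adjusted P = 0.058) and *Tjp1* gained one (0.035), and it changed no other call among the 106 named genes recomputed. *Kpna6* lay between -1.63 and -1.59 with 1 testis left out, *Kpna6*-201 between -3.31 and -3.13 and *Kpna6*-202 between 0.33 and 0.38 on the log2 scale. The share of called genes whose wild-type level was nearer to knockout was 86.9% on the log2(TPM + 1) scale.

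Of 95 named genes called, 67 kept call and direction in every setting other than the summing of near-identical sequences, and 10 lost the call with some testis left out. The following signs turned, and the cause was not tested. With library size alone *Insl3* was at 0.038, *Kdm3a* at 0.0464 and *Kpna4* at 0.0772. With limma on log2(TPM + 0.1) *Dkkl1* was at 0.0166, *Gpx4* at 0.0054, *Insl3* at 0.0586, *Kdm3a* at 0.1163 and *Kpna4* at 0.0462, and on log2(TPM + 1), with or without the filter, they were at 0.0165, 0.0054, 0.0586, 0.1149 and 0.0456. With 1 testis left out *Crisp1* ranged from -0.57 (without ΔIBB testis 3) to 7.198, *Spink8* from -0.25 (without ΔIBB testis 3) to 2.82, *Insl3* from -0.1553 to 0.1173 (without ΔIBB testis 3), *Kpna3* from -0.0345 (without knockout testis 3) to 0.0688 and *Kpna4* from -0.0384 to 0.0057 (without ΔIBB testis 1). *Pagr1a* was at 0.0096 with near-identical sequences summed. Genes of few counts are limited by depth, and 3 testes a group limit small differences.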
